A study of Mus musculus and Homo sapiens with 12 samples.

Results

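P-TEFb is the kinase that releases paused RNA polymerase II, and the 7SK complex is the RNA-protein particle that holds it inactive. The expression of 9 genes of these complexes was examined, chosen as a fixed list of known subunits and partners and matched by gene symbol: CDK9, CCNT1, CCNT2, HEXIM1, HEXIM2, LARP7, MEPCE, AFF4 and ELL2. All 9 were found, and all 9 passed the low-count filter, in both species, among 55487 mouse and 78932 human genes counted and 14918 and 20188 tested. Symbols are written in capitals for both species. Polyadenylated RNA was sequenced in 12 libraries, 3 in each of 4 groups. The mouse libraries came from fetal liver at embryonic stage E13.5, sorted as live cells without lineage markers and with Kit (LK cells). Both mouse groups carried Ddx21f/f, a loxP-flanked allele pair. The WT group had no Cre stated, and the cKO group also carried Vav-Cre (named Vav1-Cre in the series' design), which is driven by a promoter active in blood and some endothelial cells. The human libraries came from 1 embryonic stem cell line, H1, differentiated with a commercial blood kit and transduced with lentivirus carrying mCherry and either a control hairpin (shNC) or 1 hairpin against DDX21 (shDDX21). These cells were sorted for CD34, CD45, CD43 and the vector 2 days after transduction. The labels do not state whether replicates came from separate embryos or cultures, so p-values measure the spread between these libraries, which may be technical.

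As background, P-TEFb consists of the kinase CDK9 with cyclin T1 or T2 (CCNT1, CCNT2). It phosphorylates the polymerase and the pausing factors DSIF and NELF. In the 7SK particle, a small nuclear RNA capped by MEPCE and bound at its 3′ end by LARP7 carries HEXIM1 or HEXIM2, which block the kinase. Free P-TEFb is brought to genes by partners such as the super elongation complex, built on the scaffold AFF4 with elongation factors such as ELL2. DDX21, an RNA helicase of the nucleolus, is known to release P-TEFb from 7SK.

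The 7SK RNA is shown because it is the scaffold that LARP7, MEPCE and the HEXIM proteins share. The mouse gene Rn7sk (ENSMUSG00000065037) lies at chr9:78175303-78175633 on the minus strand of GRCm38 and its GENCODE M21 transcript has 331 bases. Bases 1 to 100 follow in DNA letters, with each GATC in capitals. GATC is the DNA form of the GAUC sequence in the 5′ hairpin to which HEXIM is known to bind. The letters GATC occur 3 times here, from bases 13, 42 and 64. A match describes letters, and not every copy need lie in that hairpin or be bound.
Rn7sk, bases 1 to 100: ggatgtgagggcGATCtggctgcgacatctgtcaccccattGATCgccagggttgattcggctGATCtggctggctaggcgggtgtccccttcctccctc
In these poly(A) libraries the count of Rn7sk was 6, 2 and 0 in WT and 0, 0 and 2 in cKO, so it was not testable at this depth. No human row was matched to RN7SK by symbol. Only 14931 of the 78932 human genes had a symbol, so a gene without a match may still have been counted. The particle's RNA component is therefore not analysed here, and all results concern the messenger RNAs of its protein partners.

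Library totals ran from 21116079 to 23898130 counts in mouse and from 15289510 to 19798608 in human. The spread between replicates (edgeR's common biological coefficient of variation) was 10.5% in mouse and 2.23% in human, so smaller changes could be called in human. The targeted gene went with its labels: DDX21 was at 19.7% of WT in cKO and at 14.5% of shNC in shDDX21. The mouse libraries differed along GC content. The slope of log2 CPM (the count scaled to library size) on 10% of GC was 0.16, 0.11 and -0.11 in WT and 0.13, -0.23 and -0.05 in cKO, in the order of replicates 1 to 3. WT replicate 3 stood apart from WT replicates 1 and 2 (chi-square per degree of freedom 14.1 and 9.80, against 1.87 between those). On the same measure cKO replicates 1 and 2 lay further apart, at 22.9, and every pair of cKO libraries was at 6.67 or more. Summed markers of the sorted mouse progenitors were at 1405 to 1443 CPM in WT and 1513 to 1529 in cKO. Those of granulocytes and monocytes were at 606 to 834 and 296 to 532 (4 of 4 tested genes lower), of maturing red cells at 250.2 to 288 and 329 to 389, of endothelium at 44.5 to 47.5 and 82.0 to 90.9, of hepatocytes at 1.41 to 1.86 and 29.6 to 33.4 (5 of 5 tested genes higher), and of macrophages at 1.81 to 2.63 and 1.01 to 1.36, with C1qc at 0 counts. In human, the sums in shNC and shDDX21 were 1720 to 1748 and 1689 to 1720 CPM for sorted progenitors, 536 to 549 and 459 to 462 for granulocytes and monocytes, 301 to 309 and 370.4 to 381 for maturing red cells, 1433 to 1468 and 1289 to 1309 for endothelium, and 56.9 to 63.6 and 44.9 to 48.0 for macrophages. The pluripotency marker LIN28A, the only one of 4 matched there, was at 155 to 163 and 205 to 211 CPM, and none of 8 hepatocyte genes was matched by symbol. Some sums joined genes called in opposite directions by the edgeR test below. In mouse, 2 of 7 progenitor genes were higher and 2 lower, and of 6 red cell genes 3 and 1. In human, 3 of 6 progenitor genes were higher and 3 lower (GATA2 log2 fold change -1.12). Of 4 granulocyte and monocyte genes 1 was higher and 3 lower, with MPO at -2.36 and CSF1R at 0.22. Red cell genes gave 4 and 1 of 6, endothelium 2 and 2 of 5, and macrophages 1 and 3 of 5. The part of these shifts in cell markers in the results below was not tested. In bulk RNA, fewer cells of a type and less RNA per cell cannot be told apart.

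To ask which of the 9 genes changed without DDX21, raw counts were tested with edgeR's quasi-likelihood test, fitted across all genes with Benjamini-Hochberg adjustment, and a gene was called at an adjusted p under 0.05. In mouse, 5 of the 9 were called: AFF4 higher, and HEXIM2, MEPCE, LARP7 and CCNT2 lower. Among all mouse genes tested 36.5% were called, 20.7% higher and 15.8% lower (with scaling to total counts alone, 3565 higher and 1612 lower, against 3083 and 2360). The median log2 fold change was -0.22 over the 9 genes and 0.00057 over all genes tested. In human, 5 of 9 were called as well: ELL2 and CCNT2 higher, and LARP7, MEPCE and AFF4 lower. The background there was 52.7%, with 25.3% higher and 27.4% lower, and the medians were -0.0071 over the 9 genes and 0.0052 over all. Against a minimum change of 1.2-fold (edgeR's glmTreat), HEXIM2 and AFF4 remained called in mouse, where 17.6% of all genes were, and LARP7 and ELL2 in human, where 28.2% were. The human count of 5 of 9 was near its background, and the mouse count was a little above its own.

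**Figure D1:**
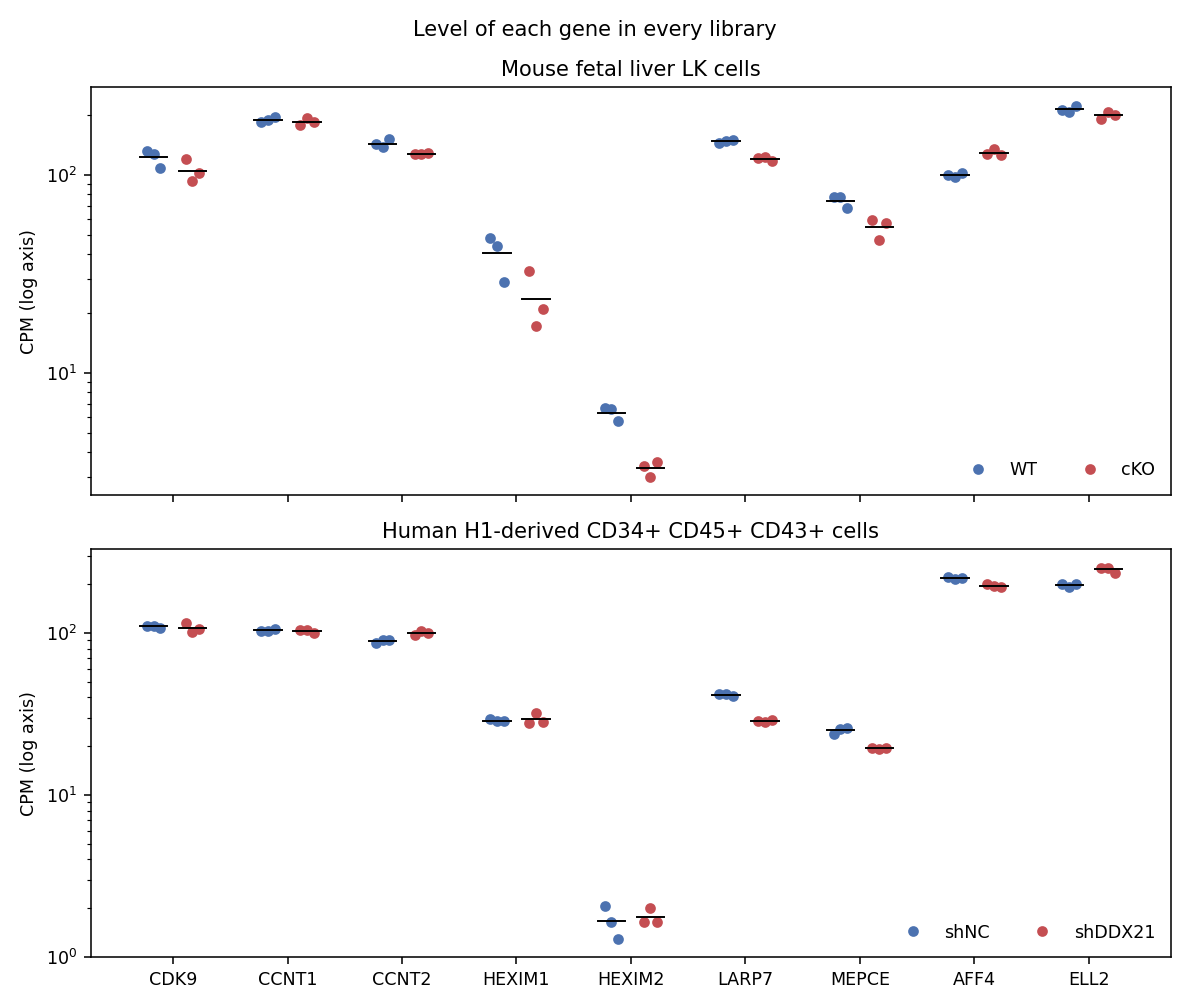
Level of the 9 genes in each library, in CPM on a log axis, for mouse (top) and human (bottom). Points are libraries, black bars are means over 3 libraries, and HEXIM2 is the lowest gene in both, with WT at 5.71 to 6.68 and cKO at 2.999 to 3.54 CPM in mouse.

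The kinase and its main cyclin showed no called change in either species in the main test. CDK9, the catalytic subunit (mouse ENSMUSG00000009555, chromosome 2, 32705784 to 32713076, minus strand of GRCm38; human ENSG00000136807), was at 132, 127 and 108.3 CPM in WT and at 120, 93.0 and 102 in cKO. The groups overlapped, since cKO replicate 1 lay above WT replicate 3. Its log2 fold change was -0.22 (SE 0.11, 95% interval -0.48 to 0.03, edgeR adjusted p 0.144). Without cKO replicate 1 it was -0.32, with an adjusted p of 0.028. Of 17 alternatives 2 called it, that one and a GC-content offset with a replicate block. In human, CDK9 was at 111, 111 and 107 CPM in shNC and 116, 102 and 106 in shDDX21, again overlapping, with a log2 fold change of -0.03 (interval -0.10 to 0.05, adjusted p 0.579).

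CCNT1, cyclin T1 (mouse ENSMUSG00000011960, chromosome 15, 98538689 to 98570923, minus strand; human ENSG00000129315), was among the most even of the 9. It stood at 186, 190 and 195 CPM in WT and 178, 194 and 185 in cKO, a log2 fold change of -0.03 (interval -0.14 to 0.07, adjusted p 0.570). In human it was at 103, 102 and 106 in shNC and 105, 104 and 101 in shDDX21, a log2 fold change of -0.01 (interval -0.08 to 0.06, adjusted p 0.882). Both pairs of groups overlapped, and the sign of these small values flipped under other scalings (mouse 0.03 with total counts, human 0.06 with upper-quartile factors).

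CCNT2, cyclin T2 (mouse ENSMUSG00000026349, chromosome 1, 127774164 to 127808061, plus strand; human ENSG00000082258), moved in opposite directions. In mouse it was at 143, 138 and 151 CPM in WT and 128, 127 and 129 in cKO, so that every cKO library was below every WT library. The log2 difference was -0.17 (SE 0.04, adjusted p 0.0212). This call was lost with total counts, upper-quartile factors, DESeq2, the 1.2-fold minimum, and without any one of WT replicate 1 or the 3 cKO libraries, with values from -0.11 to -0.23 over all alternatives. In human CCNT2 was at 87.4, 90.3 and 91.0 CPM in shNC and 97.9, 103 and 101 in shDDX21, without overlap, and rose by 0.17 (SE 0.04, adjusted p 5.43e-05).

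Of the HEXIM inhibitors, HEXIM2 fell in mouse and HEXIM1 was not called in either species. HEXIM1, which binds 7SK and blocks CDK9 (mouse ENSMUSG00000048878, chromosome 11, 103116231 to 103119725, plus strand; human ENSG00000186834), was at 48.2, 44.0 and 28.7 CPM in WT and 32.9, 17.3 and 20.95 in cKO. The groups overlapped through WT replicate 3 and cKO replicate 1. It was the most variable of the 9 in mouse, with a coefficient of variation of 25.4% in WT and 34.3% in cKO. edgeR estimated -0.76 on the log2 scale (SE 0.27, interval -1.40 to -0.13), with an unadjusted p of 0.0244 and an edgeR adjusted p of 0.0626. Values ran from -0.57 to -1.06 over 17 alternatives, of which 9 called it. Without WT replicate 3 it was -0.96 (adjusted p 0.0240) and without cKO replicate 1 it was -1.06 (adjusted p 0.00829). Its 3 highest levels were in the 3 libraries with a positive GC slope, and with a GC-content offset the log2 fold change was -0.78 (adjusted p 0.0311). The longest annotated HEXIM1 transcript has 49.2% GC, the 51.1st percentile of mouse genes tested, and the part of GC content was not tested.

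In human, HEXIM1 was at 29.3, 28.6 and 28.5 CPM in shNC and 27.7, 32.0 and 28.2 in shDDX21. The groups overlapped, with a log2 fold change of 0.02 (interval -0.11 to 0.15, adjusted p 0.811), which turned to -0.01 with total counts. An opposite-strand gene, ENSG00000224505, with 29 to 51 counts, overlaps 63.3% of the human HEXIM1 exon length and 28.2% of that of HEXIM2. A further opposite-strand gene, ENSG00000267288, with 4 to 12 counts, overlaps 51.1% of the HEXIM2 exon length. Whether counting used strand is not given in the sources used here, so reads in these overlaps cannot be assigned with certainty.

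HEXIM2, the close relative of HEXIM1 with the same inhibitory role (mouse ENSMUSG00000043372, chromosome 11, 103132429 to 103139876, plus strand; human ENSG00000168517), fell most among the 9 in mouse. Its counts were 149, 135 and 123 for WT and 78, 74 and 78 for cKO, or 6.68, 6.57 and 5.71 against 3.40, 2.999 and 3.54 CPM. No cKO library reached a WT library, and cKO held 52.4% of the WT mean. The log2 difference was -0.93 (SE 0.12, adjusted p 0.00108), called in all 17 alternatives. The human HEXIM2 counts were 39, 25 and 23 for shNC and 32, 34 and 29 for shDDX21, overlapping, with a log2 fold change of 0.08 and an interval of -0.43 to 0.59 (adjusted p 0.821). At this depth a human change inside that interval was not detectable.

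The proteins bound stably to 7SK, LARP7 and MEPCE, were the 2 of 9 genes called lower in both species, a pattern held by 10.4% of the 10314 genes matched between species. LARP7, which binds and protects the RNA's 3′ end (mouse ENSMUSG00000027968, chromosome 3, 127536714 to 127553349, minus strand; human ENSG00000174720), was at 145, 148 and 151 CPM in WT and 121, 123 and 118 in cKO. The groups lay apart, with coefficients of variation of 1.97% and 2.23%. edgeR estimated -0.29 on the log2 scale (SE 0.04, adjusted p 0.000953), and the call was lost only against the 1.2-fold minimum among 17 alternatives. In human LARP7 was at 41.7, 42.2 and 40.6 CPM in shNC and 28.8, 28.1 and 29.2 in shDDX21, also apart. It fell by 0.53 on the log2 scale (SE 0.06, adjusted p 6.55e-13), to 69.1% of the control, and was called in all 15 alternatives. An opposite-strand gene, ENSG00000249532, with 9 to 16 counts, overlaps 16.3% of the human LARP7 exon length. Reads in that overlap cannot be assigned with certainty.

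MEPCE, which methylates the 5′ cap of 7SK (mouse ENSMUSG00000029726, chromosome 5, 137781906 to 137787655, minus strand; human ENSG00000146834), was at 77.2, 77.2 and 68.2 CPM in WT and 59.4, 46.8 and 56.9 in cKO. The groups did not overlap, and edgeR estimated -0.45 on the log2 scale (SE 0.10, adjusted p 0.0106). The longest annotated MEPCE transcript has 59.7% GC, the 96.5th percentile of mouse genes tested, and with a GC-content offset the log2 fold change was -0.11 (adjusted p 0.471), so the mouse call did not hold there. In human MEPCE was at 23.9, 25.6 and 25.8 CPM in shNC and 19.5, 19.3 and 19.5 in shDDX21, without overlap. It fell by 0.37 (SE 0.07, adjusted p 8.48e-06), and lost its call only against the 1.2-fold minimum. No GC value was available for human genes here. A same-strand gene with 0 to 7 counts, ENSG00000289690, overlaps 58.5% of the human MEPCE exon length. The opposite-strand gene ZCWPW1, with 37 to 72 counts, overlaps 5.7% of it. Reads in these overlaps cannot be assigned with certainty either.

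AFF4, the scaffold of the super elongation complex (mouse ENSMUSG00000049470, chromosome 11, 53350833 to 53421830, plus strand; human ENSG00000072364), was the only one of the 9 called higher in mouse. It was at 100.02, 98.1 and 103 CPM in WT and 127, 136 and 126 in cKO, with every cKO library above every WT library. The log2 difference was 0.37 (SE 0.05, adjusted p 0.000775), called in all 17 alternatives at 0.30 to 0.43. In human it was at 223, 215 and 218 CPM in shNC and 199.5, 197 and 193 in shDDX21, without overlap, and fell by 0.16 (SE 0.03, adjusted p 1.04e-06). That human fall was smaller than 1.2-fold and was not called against that minimum.

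ELL2, an elongation factor carried by AFF4 (mouse ENSMUSG00000001542, chromosome 13, 75706757 to 75772364, plus strand; human ENSG00000118985), was at 212, 208 and 223 CPM in WT and 191, 207 and 201 in cKO. The groups did not overlap, though cKO replicate 2 came within 1 CPM of WT replicate 2, and the log2 fold change of -0.10 (SE 0.05, adjusted p 0.123) was not called. It was called at -0.13 with a GC-content offset (adjusted p 0.00548). In human ELL2 was at 202, 192 and 202 CPM in shNC and 252, 253 and 236 in shDDX21, well apart. It rose by 0.31 (SE 0.03, adjusted p 4.13e-16), to 124% of the control, called in all 15 alternatives.

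**Figure D2:**
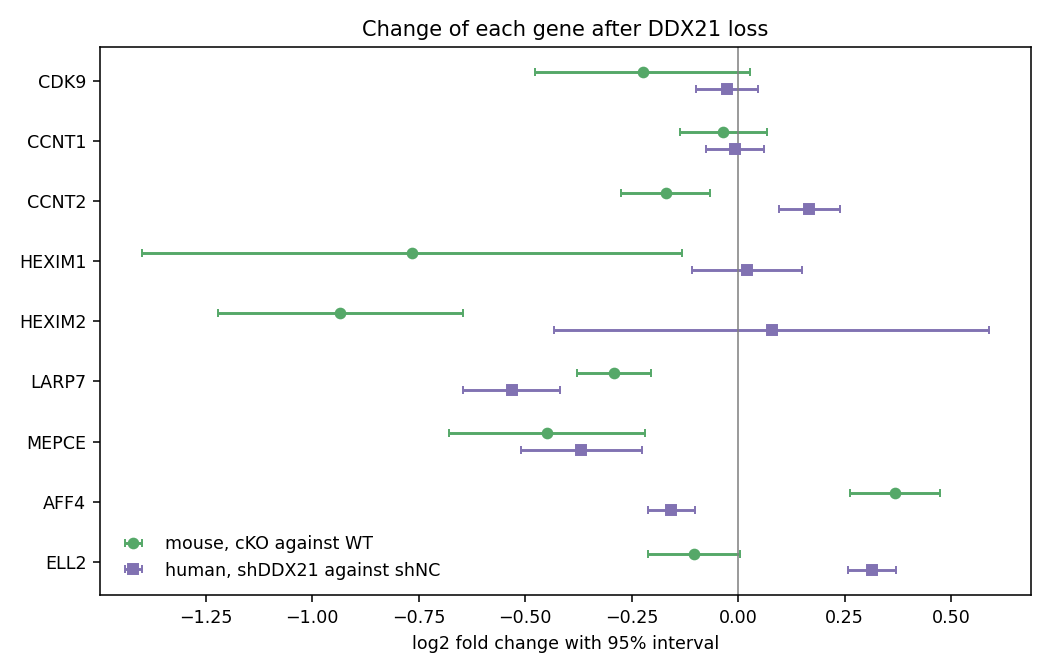
Log2 fold change of each gene with its 95% interval, mouse cKO against WT (circles) and human shDDX21 against shNC (squares). LARP7 and MEPCE lie below 0 in both, AFF4 and CCNT2 lie on opposite sides of 0, and the widest mouse interval is that of HEXIM1, from -1.40 to -0.13.

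To ask whether the response differed between the experiments, the difference of the 2 log2 fold changes (mouse minus human) was tested as an interaction over all 12 libraries. The experiments differ in species, cell source, way of losing DDX21 and time since its loss, and these cannot be told apart. Of the 9 genes 6 differed, against 56.2% of the genes matched. AFF4 differed by 0.53 (SE 0.05, adjusted p 3.95e-06), ELL2 by -0.42 (SE 0.06, adjusted p 0.000108), CCNT2 by -0.34 (SE 0.06, adjusted p 0.000288) and HEXIM2 by -1.01 (SE 0.24, adjusted p 0.00335). LARP7, lower in both, differed by 0.24 (SE 0.05, adjusted p 0.00163), the fall being larger in human. HEXIM1 differed by -0.79 (SE 0.31, adjusted p 0.0485), and 6 of 18 alternatives called it. No GC-content offset was among the alternatives for the interaction. MEPCE (-0.08, adjusted p 0.596), CDK9 (-0.20, adjusted p 0.221) and CCNT1 (-0.03, adjusted p 0.682) were not called. AFF4 and CCNT2 were called in opposite directions, as were 12.8% of matched genes.

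To compare the partners within a library, where scaling between libraries plays no part, 8 ratios of counts were formed in each experiment. With 3 libraries against 3, the smallest two-sided p of the exact permutation test is 0.1, which adjusted over the 16 ratios becomes 0.229, so none could pass the threshold. A difference between libraries along GC content does not cancel in a ratio. In mouse, AFF4 to CDK9 was 0.755, 0.772 and 0.948 in WT and 1.06, 1.46 and 1.23 in cKO, a 1.51-fold higher mean ratio without overlap (exact p 0.1). Within each group this ratio was higher where the GC slope was lower. The longest annotated transcripts have 44.5% GC for AFF4 and 50.5% for CDK9, and the part of GC content was not tested. The cyclin ratio CCNT1 to CCNT2 was 1.30, 1.38 and 1.29 in WT and 1.39, 1.53 and 1.43 in cKO (exact p 0.1). In human the same cyclin ratio was 1.18, 1.13 and 1.17 in shNC and 1.07, 1.01 and 1.00 in shDDX21 (exact p 0.1). The cyclin ratio was thus without overlap in both experiments, higher in cKO and lower in shDDX21.

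The ratio of LARP7 to CDK9 in human was 0.376, 0.380 and 0.378 in shNC and 0.249, 0.276 and 0.277 in shDDX21 (exact p 0.1), the tightest control group of any ratio. In mouse that ratio overlapped, at 1.09, 1.16 and 1.39 in WT and 1.01, 1.33 and 1.15 in cKO (exact p 0.7). The inhibitor-to-kinase ratio HEXIM1 to CDK9 was 0.364, 0.346 and 0.265 in WT and 0.275, 0.186 and 0.205 in cKO, overlapping through WT replicate 3 and cKO replicate 1 (exact p 0.2). In human it was 0.264, 0.257 and 0.266 in shNC and 0.240, 0.314 and 0.267 in shDDX21 (exact p 0.7). ELL2 to CDK9 was 1.82, 1.73 and 1.88 in shNC and 2.18, 2.48 and 2.24 in shDDX21 (exact p 0.1). In mouse ELL2 to CDK9 overlapped, at 1.60, 1.63 and 2.06 in WT and 1.59, 2.23 and 1.97 in cKO (exact p 0.7).

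**Figure D3:**
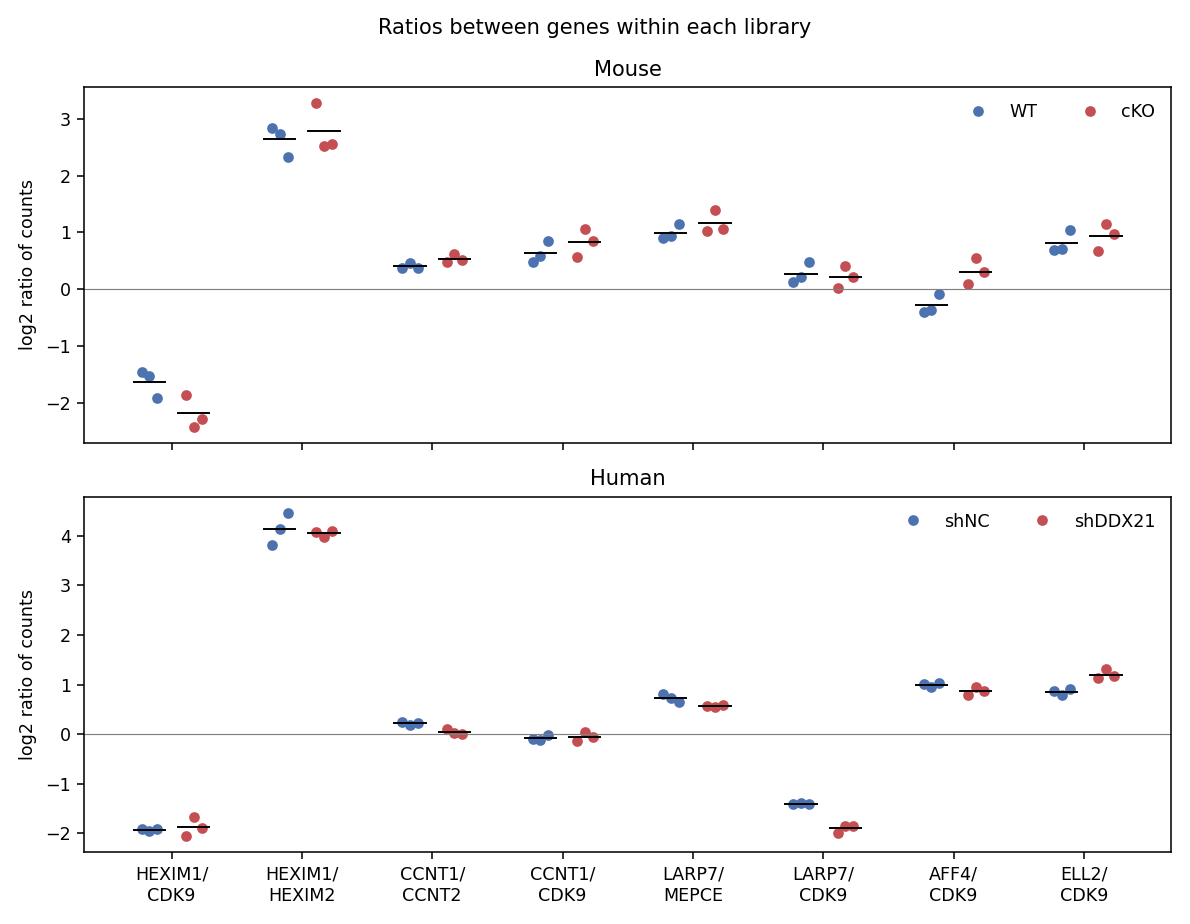
Log2 ratio of the counts of gene pairs within each library, mouse (top) and human (bottom), with points for libraries and bars for means. Ratios that do not overlap are CCNT1/CCNT2 and AFF4/CDK9 in mouse, and CCNT1/CCNT2, LARP7/MEPCE, LARP7/CDK9, AFF4/CDK9 and ELL2/CDK9 in human, all at the smallest exact p of 0.1.

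Levels per exon length (RPKM, CPM divided by the deposited exon length in kilobases) ranked the partners in control cells. In mouse WT the order was LARP7 62.5 ± 1.23, CDK9 26.6 ± 2.75, ELL2 21.8 ± 0.821, MEPCE 20.9 ± 1.46, CCNT1 20.8 ± 0.534, CCNT2 11.7 ± 0.561, HEXIM1 11.5 ± 2.93, AFF4 7.45 ± 0.169 and HEXIM2 2.66 ± 0.225 RPKM (SD, n = 3). MEPCE, CCNT1 and ELL2 lay within their spread of each other, as did CCNT2 and HEXIM1. In human shNC the order was CDK9 36.5 ± 0.698, ELL2 28.0 ± 0.777, AFF4 19.4 ± 0.338, CCNT1 14.1 ± 0.273, CCNT2 9.86 ± 0.211, HEXIM1 7.94 ± 0.112, MEPCE 7.10 ± 0.303, LARP7 5.13 ± 0.106 and HEXIM2 0.828 ± 0.192 RPKM (SD, n = 3). No neighbours in the human order overlapped. LARP7 was first in mouse and eighth in human, but the exon length used was 2366 bases in mouse and 8094 in human, and its CPM were 148 and 41.5, so the RPKM order depends on the annotation. HEXIM2 was last in both.

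Promoters are shown for LARP7, called lower in both species, HEXIM1, the variable inhibitor, and AFF4, called higher in mouse. RefSeq promoters of GRCm38.p6, from 250 bases before to 50 after each start, were matched for 7 of the 9 genes (all but HEXIM2 and MEPCE). Capitals mark exact matches, on either strand, to an E-box, a TATA box, a CCAAT box or a GC box, whose letters are given below the sequences. LARP7 is at chr3:127553300-127553599 on the minus strand, HEXIM1 at chr11:103116075-103116374 on the plus strand and AFF4 at chr11:53350517-53350816 on the plus strand.
LARP7: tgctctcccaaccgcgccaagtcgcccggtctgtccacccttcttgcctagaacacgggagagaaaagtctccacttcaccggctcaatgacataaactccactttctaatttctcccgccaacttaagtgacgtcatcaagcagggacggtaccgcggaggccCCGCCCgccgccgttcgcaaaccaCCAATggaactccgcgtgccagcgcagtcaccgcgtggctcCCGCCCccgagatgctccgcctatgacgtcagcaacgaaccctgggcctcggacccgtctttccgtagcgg
HEXIM1: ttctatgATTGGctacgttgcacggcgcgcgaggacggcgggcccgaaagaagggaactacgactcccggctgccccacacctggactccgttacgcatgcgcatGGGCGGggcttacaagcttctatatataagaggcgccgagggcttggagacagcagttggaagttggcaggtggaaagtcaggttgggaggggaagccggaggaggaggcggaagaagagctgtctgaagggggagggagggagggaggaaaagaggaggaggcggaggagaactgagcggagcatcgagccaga
AFF4: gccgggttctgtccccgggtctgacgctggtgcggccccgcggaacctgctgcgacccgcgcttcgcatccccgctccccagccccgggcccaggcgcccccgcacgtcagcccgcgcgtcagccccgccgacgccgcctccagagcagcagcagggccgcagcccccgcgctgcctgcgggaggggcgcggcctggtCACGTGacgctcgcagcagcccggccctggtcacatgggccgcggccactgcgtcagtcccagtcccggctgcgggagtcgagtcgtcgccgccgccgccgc
LARP7 has 1 CCAAT box and 2 GC boxes, HEXIM1 has 1 of each, and AFF4 has 1 E-box and neither of the others. Shares are of 32851 mouse promoters of the same length. The letters CCAAT are held by 37.4% of them. The GC box, searched as GGGCGG, is held by 35.7%. The E-box, searched as CACGTG and equal to its own reverse complement, is held by 7.15%. The TATA box, searched as TATAAA, is held by 13.6% and by none of the 3 promoters shown. HEXIM1 holds the near match tatatataag, which the exact search leaves unmarked. The 3 promoters thus carry common motifs, except for the less frequent E-box of AFF4. A match describes letters and not a used site.

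Genes whose levels ran most like the member with the smallest p were found by Pearson's r of log2 CPM over 6 libraries, as a description only, since the libraries share the group difference. For AFF4 in mouse, among 9686 genes, these were Mettl6 (r 0.9993), Septin11 (r 0.9992) and Snap23 (r 0.9987). For ELL2 in human, among 11687 genes, they were MEIS1 (r 0.9992), NOA1 (r 0.9982) and NKIRAS2 (r 0.9979).

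The wider elongation machinery was read from 58 further genes in 8 lists. In mouse 26 of 57 tested were called, 6 higher and 20 lower, with a median log2 fold change of -0.10 (with total counts, 7 higher and 11 lower). In human 43 of 56 were called, 11 higher and 32 lower, with a median of -0.13 (with upper-quartile factors, 16 higher and 22 lower). These stand beside the backgrounds of 36.5% and 52.7% called. By direction the backgrounds were 20.7% higher and 15.8% lower in mouse, and 25.3% higher and 27.4% lower in human. No value with a GC-content offset is given here for the related genes. The mouse count fell to 14 without WT replicate 1, WT replicate 2 or cKO replicate 3, to 17 without cKO replicate 2, and to 3 against the 1.2-fold minimum.

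The pausing factors DSIF and NELF are targets of P-TEFb. In mouse 4 of 6 fell, all NELF subunits: NELFA by 0.37, NELFB by 0.22, NELFCD by 0.21 (adjusted p 0.00714, 0.00457 and 0.00714) and NELFE, outside the naming rule and named after its value was seen, by 0.45 (adjusted p 0.0443). NELFE was at 64.4, 61.1 and 52.0 CPM in WT and 51.0, 35.0 and 44.4 in cKO, in the order of the GC slopes within each group. The part of GC content in these falls was not tested. In human 2 of 5 matched genes rose and 1 fell. NELFB fell by 0.26 (adjusted p 6.84e-08), NELFA had a log2 fold change of 0.08 (adjusted p 0.229), and SUPT4H1, a DSIF subunit, rose by 0.71 (adjusted p 0.0104) from 1.46 CPM.

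The PAF1 complex and elongation partners, which travel with the polymerase, were all called in human: 10 of 11 fell and 1 rose (SUPT6H, by 0.24, outside the naming rule). SUPT16H, a subunit of the histone chaperone FACT, fell by 0.65 (adjusted p 4.08e-35), SSRP1, its partner, by 0.41 (adjusted p 2.92e-22), CTR9, the PAF1 scaffold, by 0.54 (adjusted p 2.15e-25), and LEO1, another PAF1 subunit, by 0.69 (adjusted p 4.24e-17). In mouse 5 of 11 fell and 1 rose, with SUPT16H at -0.13, CTR9 at -0.12 and SSRP1 at -0.21 (adjusted p 0.0292, 0.0323 and 0.00668), and LEO1 at -0.02 (adjusted p 0.827).

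Among other partners of the super elongation complex, 2 of 7 fell in mouse, and 2 rose and 2 fell of 7 in human. MLLT3, a chromatin reader, fell in both, by 0.55 (adjusted p 0.000106) in mouse and by 0.29 (adjusted p 0.000681) in human. Its relative MLLT1 had a log2 fold change of -0.66 in mouse (SE 0.24, adjusted p 0.0664) and rose by 0.24 (adjusted p 5.89e-09) in human. EAF1 was at 0.11 in mouse (adjusted p 0.0968) and fell by 0.28 in human (adjusted p 7.36e-06), and AFF3 was at -0.30 in mouse (adjusted p 0.211) and rose by 0.50 in human (adjusted p 0.00177). The little elongation complex, which serves small nuclear RNA genes, is made up of ICE1, ICE2 and ZC3H8 with ELL. In mouse these 3 were at -0.08, 0.05 and -0.03 (adjusted p 0.200, 0.699 and 0.776). In human ICE1 fell by 0.51 (adjusted p 7.98e-20) and ICE2 by 0.31 (adjusted p 2.91e-10), with ZC3H8 at -0.01 (adjusted p 0.922).

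Of genes that recruit or release P-TEFb, 4 of 8 fell in mouse and 5 of 8 in human. SRSF2, a splicing factor that frees P-TEFb from 7SK, fell by 0.21 (adjusted p 0.00196) and 0.53 (adjusted p 3.00e-26). PPM1G, a phosphatase that does so too, fell by 0.26 (adjusted p 0.000779) and 0.07 (adjusted p 0.0192), and BRD3 fell by 0.40 (adjusted p 0.0116) and 0.28 (adjusted p 6.87e-09). In mouse BRD3 was at 193, 189 and 165 CPM in WT and 154, 124 and 137 in cKO. Within each group this was the order of the GC slopes, and the part of GC content was not tested. The hnRNPs that take up 7SK when P-TEFb leaves were called lower in 3 of 4 cases in each species: HNRNPA2B1, HNRNPR and SYNCRIP were at -0.12, -0.10 and -0.17 in mouse (adjusted p 0.0470, 0.0471 and 0.0174) and at -0.37, -0.36 and -0.44 in human (adjusted p 6.38e-28, 1.29e-14 and 1.89e-18). HNRNPA1 was at -0.12 in mouse (adjusted p 0.0821) and rose by 0.14 in human (adjusted p 5.35e-09).

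Other transcriptional kinases and cyclins gave 1 higher and 2 lower of 9 in mouse and 3 higher and 2 lower of 9 in human. CDK8 and CCNC, the kinase and cyclin of Mediator, rose in human by 0.43 (adjusted p 1.36e-11) and 0.19 (adjusted p 4.10e-05), at -0.05 each in mouse (adjusted p 0.367 and 0.576). CDK7, the kinase of TFIIH, fell by 0.17 (adjusted p 0.0314) in mouse and 0.39 (adjusted p 6.82e-05) in human, and CDK19 was at 0.16 in mouse (adjusted p 0.162) and fell by 0.15 in human (adjusted p 0.0123). Short-lived transcripts known to drop when CDK9 is inhibited gave 4 higher of 9 in mouse and 2 higher and 7 lower of 9 in human. MYC had a log2 fold change of -0.40 in mouse (adjusted p 0.0940) and fell by 1.17 in human (adjusted p 2.49e-44). EGR1 rose by 3.63 in mouse (adjusted p 8.41e-06) and fell by 0.42 in human (adjusted p 7.55e-23). The mouse rise started from a low level, 2.69 CPM in WT against 33.2 in cKO, while human shNC was at 249 CPM. JUN and JUNB were also low in mouse WT, at 1.94 and 2.47 CPM, against 15.1 and 161 in human shNC. JUN rose in both, by 1.30 (adjusted p 0.00184) and 0.57 (adjusted p 2.44e-09), and JUNB was at -0.59 in mouse (adjusted p 0.503) and fell by 0.45 in human (adjusted p 5.90e-21). The following genes behind these counts lie outside the naming rule and were named after their values were seen. In mouse AFF1 (-0.20), PAF1 (-0.20), RTF1 (-0.17), CCNK (-0.25) and TRIM28 (-0.26) fell, and SKIC8 (0.14), MNAT1 (0.19), MCL1 (0.22) and KLF6 (0.40) rose. In human SUPT5H (0.07), CCNH (0.10) and KLF6 (0.26) rose and BRD2 (-0.16), MCL1 (-0.09), FOS (-0.10), IER2 (-0.14) and IER5 (-0.17) fell.

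**Figure D4:**
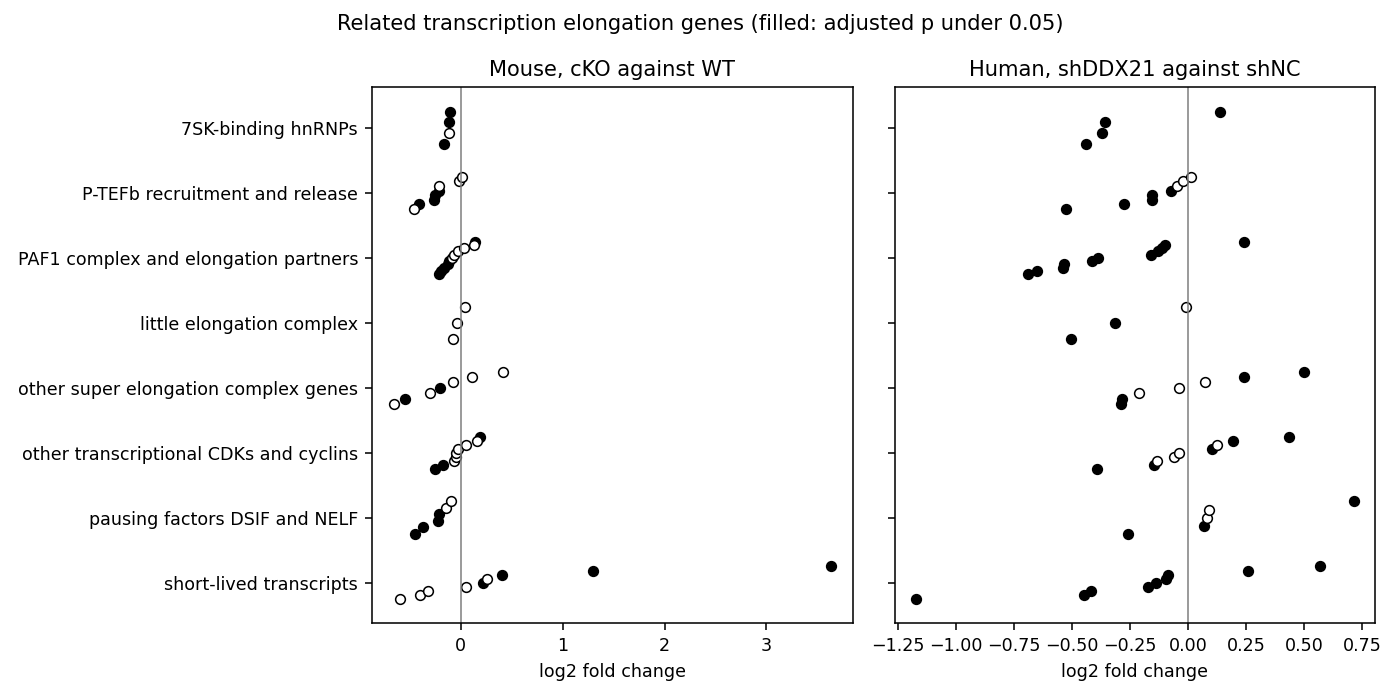
Log2 fold change of the related elongation genes by list, mouse left and human right, on different horizontal scales, with filled points for an adjusted p under 0.05. All 4 called pausing factors in mouse lie below 0, and 10 of 11 PAF1 complex and partner genes lie below 0 in human.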

How the data were processed

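Per the submitters' processing notes, STAR, featureCounts and DESeq2 were used with mm10 and hg38; versions, strand setting and annotation are not given in the sources used here. Raw tables, as deposited, give integer counts for each gene, its position and its exon length. The deposited normalized tables hold a signal equal to each count divided by 1 constant per library (largest relative deviation 4.97e-10), and were used for symbols. Mouse genes without a symbol there took it from GENCODE M21, and human genes had no such second source. Of mouse identifiers, 99.5% were in GENCODE M21, 99.4% of them at the same position, so mouse coordinates are GRCm38. No value column was left unused (0 in each raw table).

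Counts were tested with edgeR 4.0.16 (R 4.3.3; filterByExpr, TMM, glmQLFit and glmQLFTest, two-sided, no covariates) in each experiment, with Benjamini-Hochberg adjustment over all genes and a threshold of 0.05. SE was taken as |log2 fold change| divided by √F. CPM and RPKM use TMM-scaled totals. The interaction was fitted over 10314 genes matched by symbol. Ratios were tested by exact permutation (scipy 1.17.1). Reads carry no molecular identifiers, so counting precision is an upper limit. Scripts were tested on simulated data.

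Alternatives were RLE, total-count and upper-quartile scaling, no or a stricter filter (10 counts in every library), DESeq2 1.42.0, glmTreat at 1.2-fold, an exon-length offset, a replicate block and leaving out each library; a GC-content offset (mouse) was added after seeing the data. For the interaction, DESeq2, glmTreat, the fit without a filter and the GC-content offset were not run. The members and lists were chosen with earlier results of these data known. Named were all 9 members and DDX21, up to 4 genes per related list with the smallest p in either experiment, and 3 genes most like the smallest-p member among those with at least 5 CPM. One gene that this rule names is not reported here.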

Additional observations from a re-analysis of the deposited data

Results flagged for a closer look

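The mouse and human log2 fold changes differed by the interaction test for 6 of the 9 genes. Of all matched genes, 56.2% differed as well. The difference, mouse minus human on the log2 scale, was -0.34 for CCNT2, -0.79 for HEXIM1, -1.01 for HEXIM2, 0.24 for LARP7, 0.53 for AFF4 and -0.42 for ELL2. Those of CCNT2, HEXIM2, LARP7, AFF4 and ELL2 were called in all 18 alternatives, and that of HEXIM1 in 6. These 18 did not include a GC-content offset, DESeq2, glmTreat or a fit without the low-count filter. Species, cell source, way of losing DDX21 and time cannot be told apart in this difference.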

How the results depend on the processing

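Of 5 called genes in each experiment, glmTreat at 1.2-fold left 2 in mouse and 2 in human. Among related genes the mouse count of 26 became 16 with upper-quartile factors, 17 with DESeq2, 3 with glmTreat and 14 to 25 when 1 library was left out, and the human count of 43 became 18 with glmTreat. Directions turned for values that no test called. With total counts CCNT1 in mouse was 0.0310, HEXIM1 in human -0.0088, and the mouse minus human differences of CCNT1 and MEPCE 0.0677 and 0.0139. With upper-quartile factors CDK9 and CCNT1 in human were 0.0435 and 0.0621. CCNT1 in human was 0.0031 under the filter of 10 counts and 0.0574 with an exon-length offset. When 1 library was left out, CCNT1 ranged from -0.0539 to 0.0067 in mouse and -0.0208 to 0.0133 in human, CDK9 in human from -0.0805 to 0.0112, HEXIM1 in human from -0.0449 to 0.0629, and HEXIM2 in human from -0.0833 to 0.275. The differences of CCNT1 and MEPCE ranged from -0.0482 to 0.0139 and -0.143 to 0.0310. Log2 differences of ratios ranged, in mouse, from -0.0917 to 0.28 for HEXIM1/HEXIM2 and -0.163 to 0.0368 for LARP7/CDK9, and in human from -0.0515 to 0.143 for HEXIM1/CDK9, -0.244 to 0.0739 for HEXIM1/HEXIM2 and -0.0234 to 0.0642 for CCNT1/CDK9. The cause was not tested. Replicate numbers did not pair the libraries (same-number correlations of 0.64, -0.42 and 0.09 in mouse and -0.03, -0.00032 and -0.0072 in human). Between unlike numbers, mouse correlations ran from -0.75 (WT replicate 3 with cKO replicate 1) to 0.71 (WT replicate 3 with cKO replicate 2). Mouse libraries thus shared variation across the groups that the replicate numbers did not follow. With a replicate block 6 genes were called in mouse and 5 in human, 6 differed between experiments, and 21 and 42 related genes were called. The block moved HEXIM1 in mouse past the threshold (adjusted p 0.0182) and changed no other call among the 9 genes. In mouse a GC-content offset, chosen after seeing the data, gave 6 called genes and, with the replicate block, 7, CDK9 among them. HEXIM2 in human, at 23 to 39 counts per library, is limited by depth.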
